A study of Rattus norvegicus with 40 samples.

Results

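The results concern 6 transcripts whose estimated abundance was higher in the liver of Tti2+/- rats than in the liver of wild-type littermates, out of 31715 transcripts quantified in every sample. They are ENSRNOT00000018795.3 (1268 bases long in the files), ENSRNOT00000010381.4 (2084 bases), ENSRNOT00000009342.5 (2258 bases), ENSRNOT00000081245.1 (1524 bases), ENSRNOT00000091597.1 (1249 bases) and ENSRNOT00000065111.1 (3337 bases). The 6 were picked by their identifiers, and the liver contrast between the genotypes was what had drawn attention to them, so their liver differences are given as a description without a test. The files give Ensembl transcript identifiers and no gene names, and the gene table at hand matched 0 of the 31715 identifiers, so the genes that encode them, their functions and their sequences are not given here.

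The samples were 40 RNA sequencing libraries from the liver, soleus muscle, peritoneal fat (called perirenal in the methods) and hippocampus of 12 rats, with 5 samples of each genotype in every tissue. All rats were on the SHR/OlaIpcv background, the spontaneously hypertensive strain, and received no treatment that the labels name. The Tti2+/- rats carried on 1 chromosome a short frameshift deletion in the first exon of Tti2, made with a zinc finger nuclease, and descended from a single line, and the controls were littermates with both copies intact. The age of the rats sampled for sequencing is not given in the sources used here. Each rat gave at most 1 sample per tissue, so the 5 samples of a group are 5 animals, and the rat numbers of the 2 genotypes belong to different animals.

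Tti2 encodes a subunit of the Triple T complex, in which it works with Tti1 and Telo2. Acting with heat shock proteins, this co-chaperone keeps a group of very large kinases stable in the cell, including mTOR and several that respond to DNA damage. mTOR couples nutrient and insulin signals to growth and metabolism, and the liver, muscle and fat are the main tissues in which insulin regulates glucose and lipid handling. Because transcripts are not paired with names, the abundance of Tti2 itself was not looked up, and the tissue labels could not be checked against named marker genes.

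Sequencing depth, taken as the total estimated count, ran from 19176393 to 32713126 per sample. Log2 expression profiles of samples from the same tissue correlated at 0.93 or above, and those from different tissues at 0.79 or below, so no sample resembled a tissue other than its label. No pair of samples in a group differed as little as counting noise would allow, with a lowest chi-square of 6.38 per degree of freedom over the 80 pairs.

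Levels below are given as CPM, the estimated count scaled to the normalised library size within a tissue, or as TPM, which is also scaled to transcript length. In tissue RNA, fewer cells of a type and less RNA per cell cannot be told apart.

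The software used for quantification divides a read that fits several transcripts among them, which leaves fractional counts. The counts of ENSRNOT00000018795.3, ENSRNOT00000010381.4, ENSRNOT00000009342.5 and ENSRNOT00000065111.1 were whole numbers, within 0.01, in 40 of 40 samples. That was so for 39.4% of 19435 transcripts with at least 5 counts in at least 47% of the samples. ENSRNOT00000081245.1 and ENSRNOT00000091597.1 had whole counts in 1 of 40 samples each, so their reads were divided with other transcripts and their single values are uncertain to that extent. The counts of ENSRNOT00000081245.1 became whole in 40 of 40 samples when ENSRNOT00000067668.3 (2113 bases) was added, and this was the only set found that did so. The counts of ENSRNOT00000091597.1 became whole in 40 of 40 samples when ENSRNOT00000028546.5 (1702 bases) and ENSRNOT00000091606.1 (537 bases) were both added, again the only set found.

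In the liver, the most abundant of the 6 was ENSRNOT00000018795.3. Its wild-type livers held 109, 120, 129, 154 and 118 CPM in rats 1, 2, 4, 5 and 6. Its Tti2+/- livers held 257, 294, 583, 454 and 423 CPM in rats 1, 2, 4, 5 and 6. Every Tti2+/- liver lay above every wild-type liver, and the Tti2+/- livers split into a lower pair, rats 1 and 2, and a higher trio. The fitted log2 fold difference was 1.67 (SE 0.21), a 3.19-fold higher level.

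ENSRNOT00000091597.1 had the largest fold difference of the 6 and the lowest wild-type level. Its wild-type livers held 1.96, 3.07, 4.61, 4.31 and 2.47 CPM in rats 1, 2, 4, 5 and 6. Its Tti2+/- livers held 10.6, 10.9, 20.1, 29.0 and 14.8 CPM in the same order. The groups did not overlap, although levels within each genotype spread more than for any other of the 6. The log2 fold difference was 2.37 (SE 0.33), a 5.18-fold higher level. Summed with the transcripts that share its reads, the set differed by 2.47 (SE 0.27) on the log2 scale, and its share of the set lay between 18.3% and 26.5% in wild-type livers and between 16.4% and 26.3% in Tti2+/- livers. The 2 ranges of the share overlapped, and the set as a whole was higher in Tti2+/- livers. ENSRNOT00000028546.5 and ENSRNOT00000091606.1, named because of the shared reads, had log2 fold differences of 2.48 and 2.60.

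ENSRNOT00000065111.1, the longest of the 6, held 16.5, 14.98, 18.6, 23.4 and 23.9 CPM in wild-type rats 1, 2, 4, 5 and 6. The Tti2+/- livers held 34.1, 35.4, 39.4, 44.0 and 49.7 CPM. All Tti2+/- livers were above the highest wild-type liver, and the log2 fold difference was 1.06 (SE 0.15), a 2.08-fold higher level. ENSRNOT00000009342.5 held 11.3, 10.8, 13.0, 12.4 and 12.1 CPM in the wild-type livers. Its Tti2+/- livers held 19.5, 22.4, 17.8, 17.3 and 24.4 CPM. The lowest Tti2+/- liver was again above the highest wild-type liver, with a log2 fold difference of 0.77 (SE 0.10), a 1.70-fold higher level.

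The smallest differences were those of ENSRNOT00000010381.4 and ENSRNOT00000081245.1. ENSRNOT00000010381.4 held 20.4, 16.9, 19.3, 20.8 and 22.1 CPM in wild-type rats 1, 2, 4, 5 and 6 and 34.1, 32.8, 26.5, 33.4 and 31.5 CPM in Tti2+/- rats 1, 2, 4, 5 and 6. Its groups were apart, with Tti2+/- rat 4 nearest to the controls, and the log2 fold difference was 0.67 (SE 0.086), a 1.59-fold higher level. ENSRNOT00000081245.1 held 60.4, 59.9, 55.8, 56.4 and 61.8 CPM in the wild-type livers and 72.0, 83.8, 94.7, 98.3 and 97.9 CPM in the Tti2+/- livers. The wild-type livers were close together and the Tti2+/- livers were spread, with rat 1 the nearest to the controls. Its log2 fold difference was 0.60 (SE 0.083), a 1.52-fold higher level. Summed with ENSRNOT00000067668.3, the difference was 0.56 (SE 0.085), which is under the fold limit of 1.5 (0.58 on the log2 scale). Its share of that set lay between 25.3% and 30.0% in wild-type livers and between 26.1% and 31.2% in Tti2+/- livers.

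**Figure D1:**
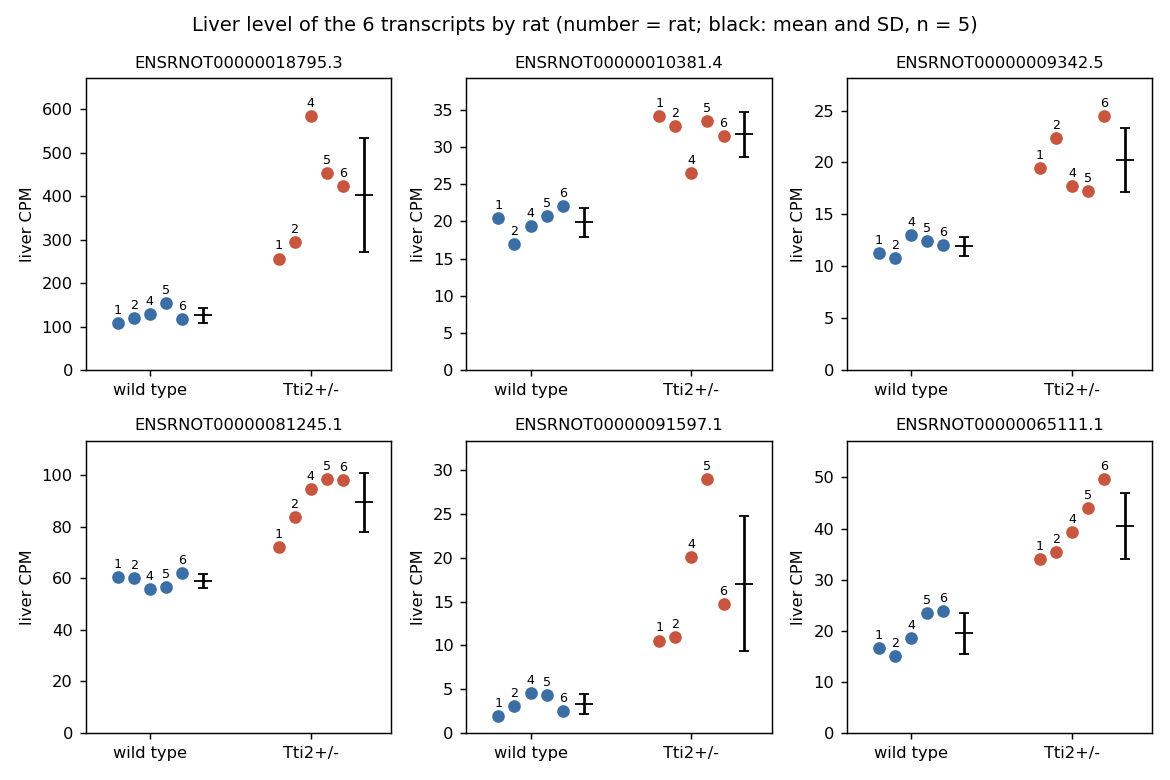
Liver CPM of each of the 6 transcripts (vertical axis, from 0) in every wild-type and Tti2+/- rat, with the rat number above each point and the mean and SD of 5 rats in black. In each panel the lowest Tti2+/- liver lies above the highest wild-type liver, with the widest relative spread for ENSRNOT00000091597.1, from 10.6 to 29.0 CPM in Tti2+/- livers.

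A transcript was called when its adjusted p-value was below 0.1 and its levels differed at least 1.5-fold. Each of the 6 met both limits in the liver, the contrast that had drawn attention to them. Their calls, separation, median and places in that contrast follow largely from this choice. They are a description and do not test the liver difference. Over all 18423 transcripts tested in the liver, 19 (0.103%) were called higher. The groups did not overlap in 6 of the 6, and in 1.28% of all tested transcripts every Tti2+/- liver was above every wild-type liver. Ordered by p-value among the 19, the 6 took places 2 to 7, and by size of the difference they took places 4, 6, 9, 12, 14 and 17. The called transcript just before them by p-value was ENSRNOT00000028546.5, which shares reads with ENSRNOT00000091597.1 and differed by 2.48 on the log2 scale. The called transcript just after the 6 differed by 0.81. ENSRNOT00000091606.1, of the same read-sharing set, also met both limits (2.60, edgeR adjusted p = 0.0616). The 19 are therefore not all separate measurements. The median log2 difference of the 6 was 0.91, against 0.001 for all tested transcripts. Without wild-type rat 4, ENSRNOT00000081245.1 and ENSRNOT00000065111.1 were no longer called. ENSRNOT00000081245.1 also lost its call, by falling under the fold limit, without Tti2+/- rat 4, rat 5 or rat 6, with log2 fold differences of 0.58, 0.56 and 0.57.

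The spread between rats of one genotype differed among the 6. In wild-type livers the SD of log2 CPM was 0.065 for ENSRNOT00000081245.1, a value that 8.98% of tested transcripts undercut, and 0.52 for ENSRNOT00000091597.1, above 81.2% of tested transcripts. In Tti2+/- livers the SD was 0.19 for ENSRNOT00000081245.1 and 0.62 for ENSRNOT00000091597.1. For ENSRNOT00000018795.3 it was 0.19 in wild-type and 0.48 in Tti2+/- livers. The median SD over all tested transcripts was 0.20 in wild-type and 0.21 in Tti2+/- livers, and the difference in spread between the genotypes was not tested.

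Whether the liver difference recurs elsewhere was asked in the soleus muscle, peritoneal fat and hippocampus, samples that played no part in choosing the transcripts. None of the 6 was called in any of these tissues with edgeR's quasi-likelihood test. In the muscle, 0 of 5 tested members were called, and 0% of 18120 transcripts were called higher. In the fat, 0 of 6 tested members were called, and 0% of 20221 transcripts were called higher. In the hippocampus, 0 of 5 tested members were called, and 0% of 20712 transcripts were called higher. DESeq2 and limma also called 0 members in each tissue. Over all tested transcripts and in either direction, DESeq2 called 0.221% for muscle, 0.0989% for fat and 0.0531% for hippocampus, and limma called 0.00552%, 0% and 0.00966%. So few calls over all transcripts leave the absence of a member among them close to the background. ENSRNOT00000018795.3 was too low for the test in muscle and hippocampus.

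At an unadjusted p under 0.05, 1 of 5 members was higher in the muscle, against 3.68% of all tested transcripts. The same held for 1 of 5 in the hippocampus, against 2.07%, and for 0 of 6 in the fat, against 3.81%. In either direction, DESeq2 gave 1 member at this level in each of the 3 tissues, against 7.21% of all transcripts for muscle, 7.35% for fat and 4.14% for hippocampus. limma gave 1 member for muscle (7.33% of all transcripts), 0 for fat (7.09%) and 1 for hippocampus (4.29%). No member had all Tti2+/- samples above all wild-type samples in any of the 3 tissues, a pattern seen in 0.8% of transcripts for muscle, 0.717% for fat and 0.589% for hippocampus. The log2 fold difference was above 0 for 3 of 5 members in muscle (49.0% of all transcripts), 6 of 6 in fat (49.0%) and 3 of 5 in hippocampus (50.1%). The median over the members tested was 0.15 in muscle, 0.19 in fat and 0.01 in hippocampus, and that of all transcripts was between -0.0042 and 0.0005.

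**Figure D2:**
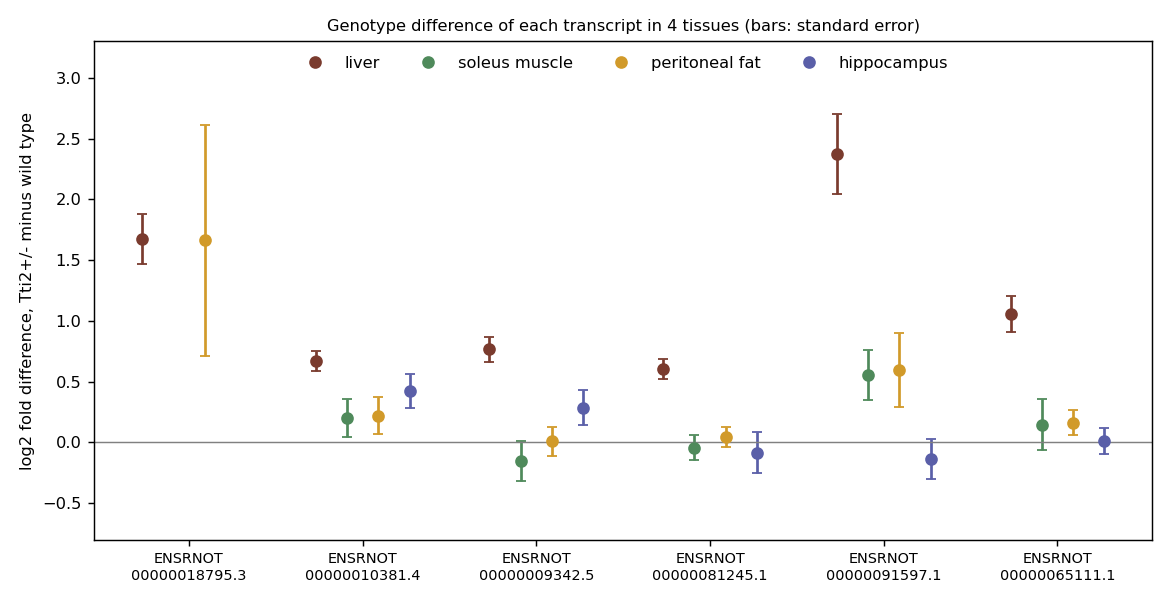
Log2 fold difference between Tti2+/- and wild-type rats (vertical axis) of each transcript in the liver, soleus muscle, peritoneal fat and hippocampus, with bars of 1 standard error (5 rats per genotype) and a grey line at 0. The liver points lie between 0.60 and 2.37, and the points of the other tissues lie between -0.16 and 0.60 except for ENSRNOT00000018795.3 in the fat at 1.66, with its wide bar.

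ENSRNOT00000091597.1 had the largest difference in the muscle. Its wild-type muscles held 21.1, 24.4, 21.3, 28.8 and 11.9 CPM in rats 2, 3, 4, 5 and 6. Its Tti2+/- muscles held 25.4, 28.2, 35.5, 38.6 and 30.1 CPM in rats 2, 3, 4, 5 and 6. All 5 Tti2+/- muscles were above the wild-type mean and 3 of them above every wild-type muscle. The log2 fold difference was 0.56 (SE 0.20), with a fold of 1.47 and a 95% interval from 1.06 to 2.03. Its adjusted p-value was 0.679 by edgeR's quasi-likelihood test (unadjusted 0.0202), so it did not pass over all transcripts. Summed over the transcripts that share its reads, the muscle difference was 0.64 (SE 0.17, edgeR unadjusted p = 0.0033, adjusted 0.624). Within that set, ENSRNOT00000028546.5 differed by 0.70 (SE 0.16, edgeR unadjusted p = 0.000988, adjusted 0.465). ENSRNOT00000091606.1 differed by 0.50 (SE 0.25, edgeR unadjusted p = 0.0678, adjusted 0.733). These values share reads, so they are not separate measurements, and none passed over all transcripts.

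In the fat, ENSRNOT00000091597.1 held 28.0, 27.3, 34.4, 12.6 and 32.6 CPM in wild-type rats 1 to 5. Its Tti2+/- fat held 28.4, 25.7, 34.8, 49.3 and 65.7 CPM in rats 1 to 5. Rats 4 and 5 of the Tti2+/- group were high and rats 1 to 3 lay at the level of the controls. The log2 fold difference was 0.60 (SE 0.31) and the edgeR adjusted p was 0.758. Without Tti2+/- rat 5 it was 0.36. In the hippocampus its difference was -0.14 (SE 0.16, edgeR adjusted p = 0.942), and it was 0.03 for the summed set.

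ENSRNOT00000010381.4 had the largest difference in the hippocampus. Its wild-type samples held 2.44, 2.74, 2.33, 2.46 and 2.48 CPM in rats 1, 2, 3, 5 and 6. Its Tti2+/- samples held 3.77, 3.78, 3.46, 3.17 and 2.55 CPM in rats 1 to 5. Of the Tti2+/- samples, 4 were above every wild-type sample and rat 5 lay within their range. The log2 fold difference was 0.42 (SE 0.14), with a fold of 1.34 and a 95% interval from 1.07 to 1.67. Its edgeR adjusted p-value was 0.939 (unadjusted 0.0121), so it too did not pass. In the muscle it differed by 0.20 (SE 0.16, edgeR adjusted p = 0.819) and in the fat by 0.22 (SE 0.15, edgeR adjusted p = 0.812). The fat difference was 0.0965 without Tti2+/- rat 5 and 0.14 without wild-type rat 4. The upper bounds of the 95% interval of the fold were 1.47 for muscle, 1.49 for fat and 1.67 for hippocampus. Its liver fold was 1.59, with a 95% interval from 1.39 to 1.83 that overlaps those of the other tissues. That fold comes from the contrast that chose the transcript and was not tested against the other tissues.

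ENSRNOT00000009342.5 differed by -0.16 (SE 0.16) in the muscle, 0.01 (SE 0.12) in the fat and 0.29 (SE 0.15) in the hippocampus. Its fat CPM lay between 289 and 439 in wild-type and between 305 and 399 in Tti2+/- rats, so the ranges overlapped. ENSRNOT00000081245.1 differed by -0.04 (SE 0.10) in the muscle, 0.04 (SE 0.082) in the fat and -0.08 (SE 0.17) in the hippocampus. Its muscle CPM ranged from 155 to 226 in wild-type and from 179 to 212 in Tti2+/- rats. ENSRNOT00000065111.1 differed by 0.15 (SE 0.21) in the muscle, 0.16 (SE 0.10) in the fat and 0.01 (SE 0.11) in the hippocampus. In the fat all 5 Tti2+/- samples of ENSRNOT00000065111.1 were above the wild-type mean but 1 was above every wild-type sample. The edgeR adjusted p-values of these 9 differences were 0.793 or higher. The upper bounds of the 95% interval of the fold reached at most 1.54 for ENSRNOT00000009342.5, 1.24 for ENSRNOT00000081245.1 and 1.55 for ENSRNOT00000065111.1. Their liver folds were 1.70 (95% interval 1.44 to 2.0), 1.52 (1.33 to 1.73) and 2.08 (1.64 to 2.64). These liver folds may be too high, as they come from the contrast that chose the transcripts. Without wild-type rat 2, the difference of ENSRNOT00000009342.5 in the hippocampus was 0.17. Other differences of these 3 transcripts also moved by over 1.5 times when 1 sample was left out. In the fits to all samples these were smaller than their standard errors, but some exceeded them without a sample. In the muscle without wild-type rat 5, ENSRNOT00000009342.5 differed by -0.28 (SE 0.12) and ENSRNOT00000081245.1 by -0.12 (SE 0.077). In the fat without wild-type rat 2, ENSRNOT00000081245.1 differed by 0.10 (SE 0.076). The liver was not tested against the other tissues, because its contrast had chosen the transcripts.

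Differences between tissues in the genotype effect were tested in one fit over the 30 muscle, fat and hippocampus samples, for the 5 members that could be tested there. With edgeR's quasi-likelihood test none passed, the smallest adjusted p being 0.595. Over all 16733 transcripts, 0% were called between muscle and fat, 0.012% between muscle and hippocampus and 0% between fat and hippocampus, and the members were at this background. The lowest unadjusted p, 0.0494, belonged to ENSRNOT00000091597.1, whose effect was 0.74 (SE 0.36) larger on the log2 scale in the fat than in the hippocampus. A limma fit with the rat as a random block gave 0 members and the same shares of all transcripts.

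ENSRNOT00000018795.3 was near its detection limit outside the liver. In the muscle its counts were 0, 0, 1, 1 and 0 in wild-type rats 2 to 6 and 0, 0, 1, 0 and 3 in Tti2+/- rats 2 to 6. In the hippocampus the wild-type counts were 0, 0, 0, 1 and 1 in rats 1, 2, 3, 5 and 6, and the Tti2+/- counts were 0, 0, 0, 0 and 22 in rats 1 to 5. A single library, that of Tti2+/- rat 5, thus held all hippocampal counts of its genotype, and no fold is given, as the other hippocampus samples were at 0 or 1. In the fat the counts were 9, 1, 0, 5 and 0 in wild-type rats 1 to 5 and 8, 4, 2, 11 and 23 in Tti2+/- rats 1 to 5. The fat groups overlapped, and the log2 fold difference was 1.66 (SE 0.95), with a 95% interval of the fold from 0.693 to 14.5 and an edgeR adjusted p of 0.781. Too few fat samples reached 5 counts for a test without Tti2+/- rat 1, 4 or 5 or without wild-type rat 1 or 4.

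These traces were set beside RNA of other liver transcripts in the same samples. For this, 367 transcripts other than the 6 were taken with at least 10 TPM in wild-type liver and at least 100 times the level of any other wild-type tissue. Their summed TPM was between 424200 and 449200 in the livers. In the hippocampus the sum was 2125 TPM in Tti2+/- rat 5 and between 156.5 and 726 TPM in the other 9 samples. In the fat it was 1538 TPM in Tti2+/- rat 5 and between 202 and 946 TPM in the other 9 samples. The library of Tti2+/- rat 5 was therefore the highest in both tissues for the liver transcripts and for ENSRNOT00000018795.3. The list was chosen for low levels in these same wild-type samples, which limits their sums but not those of Tti2+/- samples. Sums and shares of the 2 genotypes are thus not on equal terms. Among Tti2+/- samples alone, the next highest sums were 257.3 TPM in the hippocampus (rat 2) and 597.6 TPM in the fat (rat 4).

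ENSRNOT00000018795.3 amounted to 0.0668% of that sum in the hippocampus and 0.0637% in the fat of Tti2+/- rat 5. In the livers it was between 0.0565% and 0.119% of the sum in Tti2+/- rats and between 0.0262% and 0.0342% in wild-type rats. In the fat of the other Tti2+/- rats the share was 0.0743%, 0.0622%, 0.0364% and 0.0873% in rats 1 to 4, on counts of 11 or fewer. In wild-type fat it was 0.044%, 0.0211%, 0%, 0.031% and 0% in rats 1 to 5. In the muscle the most counts, 3 in Tti2+/- rat 6, fell in a sample with a low sum of 28.6 TPM. The part of liver RNA in the fat and hippocampus values was not tested.

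**Figure D3:**
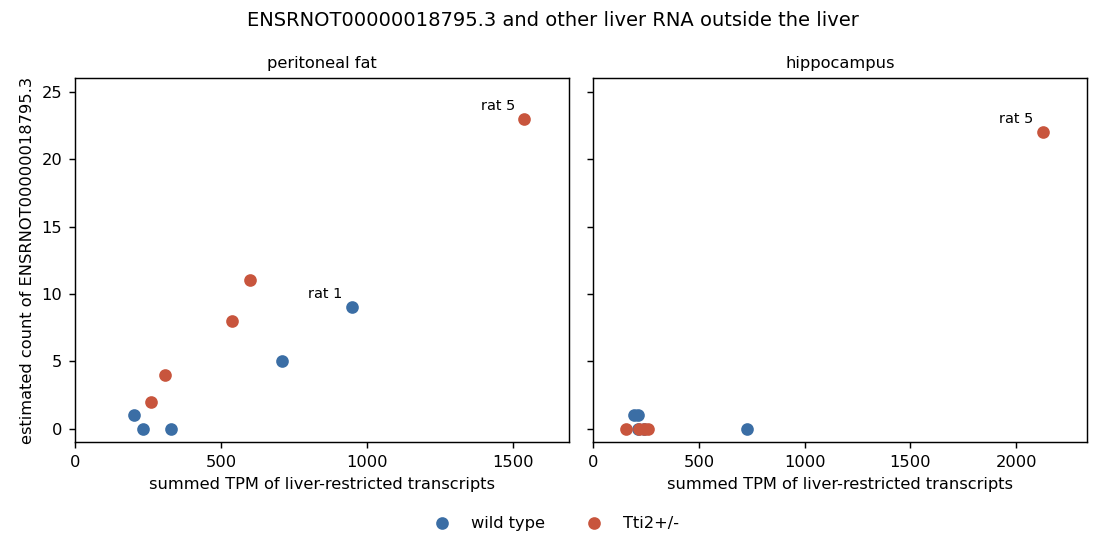
Estimated count of ENSRNOT00000018795.3 (vertical axis) against the summed TPM of 367 other liver-restricted transcripts (horizontal axis, a separate scale in each panel) in every fat and hippocampus sample, with wild-type rats in blue and Tti2+/- rats in red. Tti2+/- rat 5 is highest on both axes in both tissues, at 23 and 22 counts.

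The tissue in which each transcript is most abundant was compared in the 20 wild-type samples on the TPM scale, with two-sided exact permutation tests between neighbours in the order. Groups of 5 allow no exact p below 0.0079, which becomes 0.012 after Benjamini-Hochberg adjustment over the 18 comparisons made. The 6 transcripts followed no common order. ENSRNOT00000018795.3 was a liver transcript, at 124 TPM ± 14.5 (SD, n = 5) in the liver and 0.136 TPM ± 0.18 in the fat. The liver samples were all above the fat samples (exact permutation p = 0.0079, adjusted 0.012), while fat, hippocampus and muscle overlapped. ENSRNOT00000010381.4 was also highest in the liver, at 9.98 TPM ± 1.03, followed by the fat at 4.56 ± 0.79, the hippocampus at 1.64 ± 0.061 and the muscle at 0.813 ± 0.065. Each step had the smallest exact permutation p, with no overlap between neighbours. On CPM normalised over all 40 samples, the muscle was above the hippocampus, also without overlap (2.87 against 1.72 CPM, exact permutation p = 0.0079). The order of these 2 tissues thus depended on the scale, and the p-values do not settle it.

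The remaining transcripts were highest outside the liver. ENSRNOT00000009342.5 stood at 200 TPM ± 30.2 in the fat, 74.1 ± 14.0 in the muscle, 14.5 ± 3.22 in the hippocampus and 5.82 ± 0.338 in the liver, each step without overlap (exact permutation p = 0.0079). On the CPM scale over all samples, fat and muscle of this transcript overlapped (261 against 254 CPM), and liver and hippocampus changed places with overlap. ENSRNOT00000065111.1 was highest in the fat at 54.6 TPM ± 7.32, with the hippocampus at 6.99 ± 0.616, the liver at 6.45 ± 1.27 and the muscle at 1.33 ± 0.331. Hippocampus and liver overlapped on TPM (exact permutation p = 0.40), and on the CPM scale the liver was above the hippocampus without overlap.

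ENSRNOT00000081245.1 was highest in the muscle at 184 TPM ± 21.4, followed by the liver at 56.2 ± 3.44, the fat at 45.3 ± 6.10 and the hippocampus at 24.5 ± 5.75, the one order that held on both scales. Liver and fat of this transcript overlapped (exact permutation p = 0.024, adjusted 0.033). ENSRNOT00000091597.1 stood at 28.3 TPM ± 9.19 in the fat, 20.3 ± 6.01 in the muscle, 17.7 ± 1.95 in the hippocampus and 2.96 ± 0.974 in the liver. Its fat, muscle and hippocampus levels overlapped (exact permutation p = 0.13 and 0.43), and muscle was above fat on the CPM scale. The liver was its lowest tissue on both scales (exact permutation p = 0.0079 against the hippocampus), although this transcript had the largest liver fold difference of the 6. In Tti2+/- rats the order by mean TPM was the same for 5 of the 6, the exception being ENSRNOT00000065111.1, whose liver was above the hippocampus there.

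**Figure D4:**
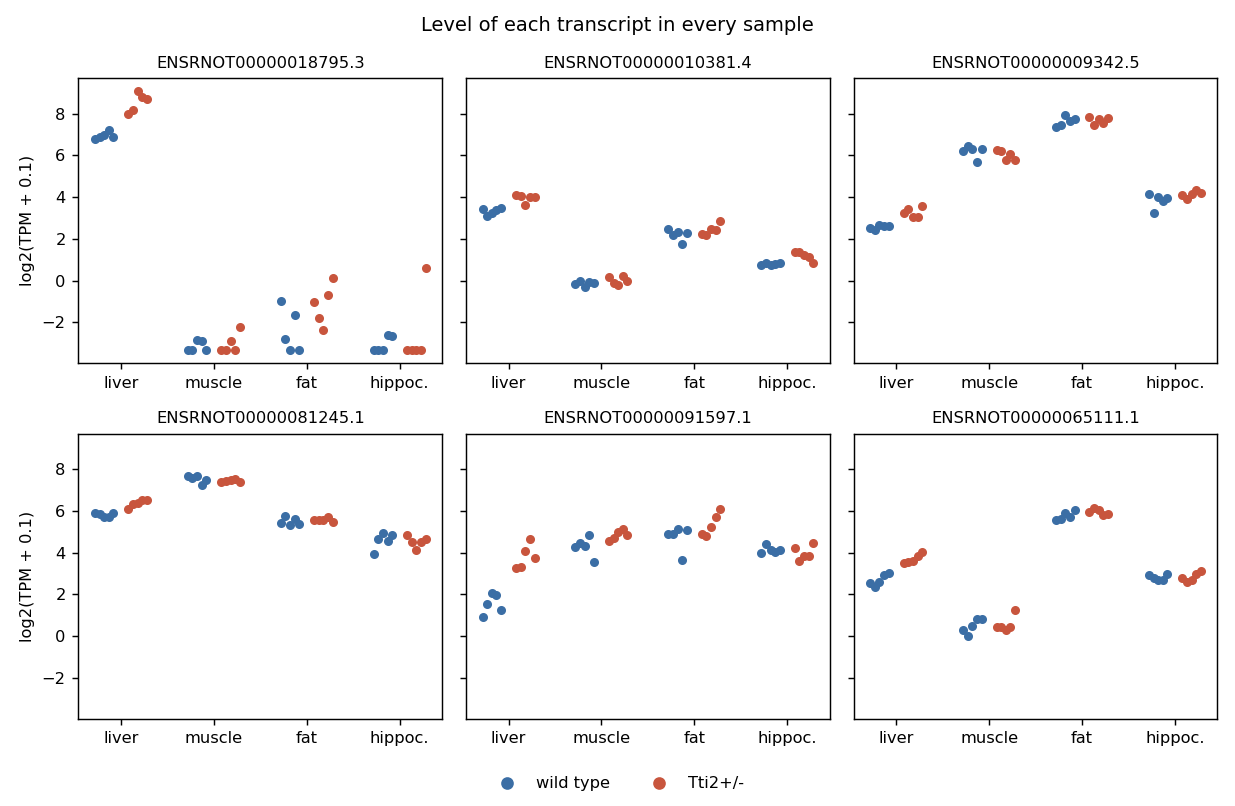
Level of each transcript in all 40 samples as log2(TPM + 0.1) (vertical axis, shared by the panels) in the liver, soleus muscle, peritoneal fat and hippocampus, with wild-type rats in blue and Tti2+/- rats in red. ENSRNOT00000018795.3 is near the floor outside the liver, and ENSRNOT00000009342.5, ENSRNOT00000091597.1 and ENSRNOT00000065111.1 have their highest mean in the fat.

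Covariation among rats was measured on deviations of log2 CPM from the mean of the genotype in the 10 livers, which leaves out the genotype difference. The 15 pairs of members had a median Pearson's r of 0.361, from -0.487 to 0.763, and a median Spearman's rho of 0.285. Of the 15 pairs, 9 were above 0, against 49.8% of all pairs of tested liver transcripts, and 3 reached 0.5, against 9.37% of all pairs. No pair passed Benjamini-Hochberg adjustment over the 15 permutation tests, and 1 had an unadjusted p under 0.05. The median r fell to 0.05 when, for each pair, the 2 livers farthest from the median of the first transcript were left out. The livers left out depended on the first transcript, and leaving out extremes can itself lower r. With each liver left out in turn, the median r was between 0.144 and 0.395.

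The highest r was that of ENSRNOT00000018795.3 and ENSRNOT00000091597.1, at 0.763 with a rho of 0.794 (10 livers, permutation p = 0.021 and 0.013, adjusted 0.32 and 0.19). It was 0.817 without the 2 farthest livers. ENSRNOT00000018795.3 and ENSRNOT00000081245.1 followed with r = 0.674 and rho = 0.612 (permutation p = 0.15 and 0.17, adjusted 0.56 and 0.63), and r fell to 0.341 without the 2 farthest livers. ENSRNOT00000018795.3 and ENSRNOT00000010381.4 deviated in opposite directions, with r = -0.487 and rho = -0.406 (permutation p = 0.19 and 0.29, adjusted 0.56 and 0.63), and r was 0.05 without the 2 farthest livers. Of the Tti2+/- livers, rat 1 was the lowest for 4 of the 6 transcripts and rat 5 was among the 2 highest for 5 of them. Of the wild-type livers, rat 2 was the lowest for 3 of the 6 and rat 5 was among the 2 highest for 5 of them. No share over all tested transcripts stands beside these counts by rat, so they are a description.

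**Figure D5:**
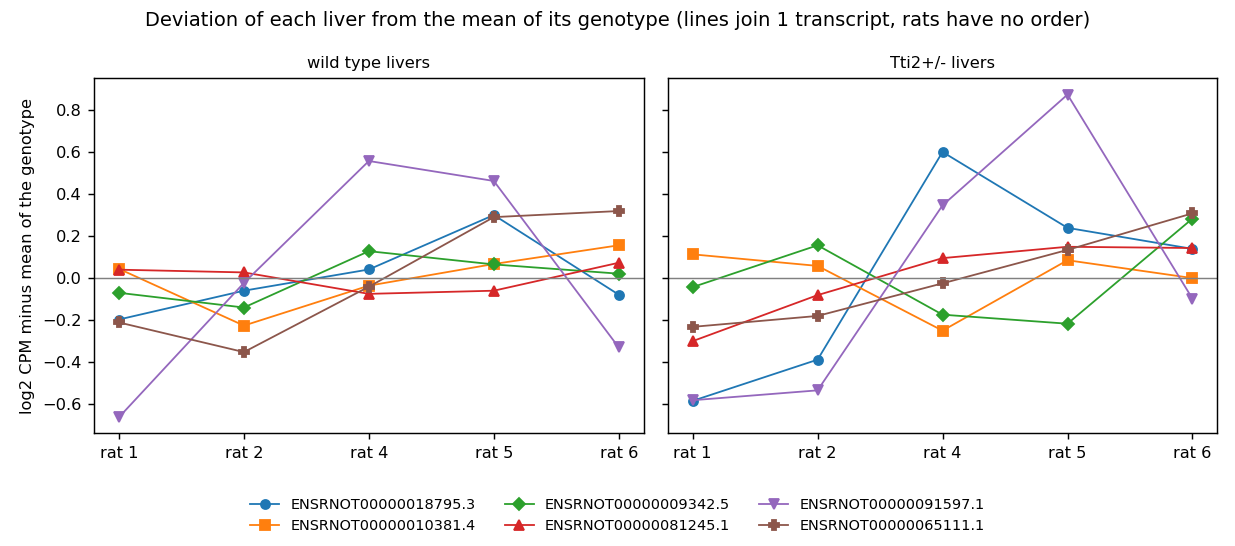
Deviation of log2 CPM from the mean of the genotype (vertical axis) for each of the 6 transcripts in the 5 wild-type and the 5 Tti2+/- livers, with lines joining the points of 1 transcript and no order among rats. ENSRNOT00000018795.3 and ENSRNOT00000091597.1 are the pair with r = 0.763 over all 10 livers, which did not pass adjustment. In Tti2+/- livers both lie below the mean in rats 1 and 2 and above it in rats 4 and 5. In Tti2+/- rat 6 they lie on opposite sides (0.138 and -0.099). ENSRNOT00000010381.4 dips in Tti2+/- rat 4, where ENSRNOT00000018795.3 is highest.

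The same deviations were set against those in another tissue of the same rat, for 8 rats, 4 of each genotype, an analysis chosen after the data had been seen. Over 16 relations, none passed an adjusted p of 0.05. The largest were in the muscle, for ENSRNOT00000065111.1 with r = 0.79 and rho = 0.857 (exact permutation p = 0.0087 and 0.014, adjusted 0.07 for r) and for ENSRNOT00000091597.1 with r = 0.78 and rho = 0.857 (exact permutation p = 0.0069 and 0.017, adjusted 0.07 for r). Without the 2 farthest rats r was 0.803 and 0.811. The other 14 relations had an adjusted p of 0.92.

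Across the 10 livers with genotype means kept, the other transcript most like the 6 was ENSRNOT00000028546.5, with a mean Pearson's r of 0.92 to the members and a range from 0.828 to 0.993. It shares reads with ENSRNOT00000091597.1, so the 2 are not separate measurements. The next was ENSRNOT00000081845.1, with a mean r of 0.908, at 61.2 CPM ± 7.43 (SD, n = 5) in wild-type and 87.8 CPM ± 5.36 in Tti2+/- livers. Its log2 fold difference of 0.52 (SE 0.082) was under the fold limit, and it was not called. These correlations contain the genotype difference that chose the 6 transcripts and are a description.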

How the data were processed

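RNA sequencing was carried out on 40 rat samples of 4 tissues and 2 genotypes. Per the labels and the methods, libraries were strand-specific, made from poly(A) RNA and sequenced single-end. The authors quantified transcripts with kallisto (version 0.46.0 in the submitters' processing notes, which also name build rn6, while the methods give a later patch version) against Ensembl cDNA. The deposited tables hold for each transcript an estimated count, which need not be whole, and a TPM value, which the authors' software scaled for length and library size. Neither gene names nor coordinates accompany the values, and no sequences were used.

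Estimated counts were rounded. For each tissue, a quasi-likelihood model with genotype as its single term was fitted with edgeR 4.0.16 (R 4.3.3, TMM) for transcripts with at least 5 counts in at least 47% of samples. Calls needed a Benjamini-Hochberg adjusted p under 0.1 over all tested transcripts and a fold of at least 1.5. sleuth, used in the study, was not used here. Log2 CPM used a prior count of 1. Fold intervals are 95% intervals with 8 degrees of freedom, and exact tests between 2 groups of 5 samples ran over 252 assignments. Correlations between members over the livers used 100000 permutations within genotypes, and the same-rat relations used exact permutations over 8 rats. Intervals cover the spread among these rats, and counting error sets the limit for ENSRNOT00000018795.3 outside the liver.

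The 6 transcripts and all lists were chosen with earlier results of these data known. Beyond the 6, the 2 transcripts with the highest mean correlation to them over the livers were named, and 2 more, chosen after their values were seen, because they share reads with a member. Alternatives were DESeq2 1.42.0, limma 3.58.1 on log estimated counts + 0.5, median-of-ratios size factors, other filters (10 counts in every sample, or 1 count in any) and thresholds (adjusted p under 0.05, or no fold limit), the rat number as a block, log2(TPM + 0.1), a prior count of 5, CPM over all 40 samples, and each sample left out in turn. Sums over read-sharing transcripts, the liver RNA comparison and the same-rat comparison were added after the data were seen. Same-numbered rats of the 2 genotypes are different animals, and their deviations from the genotype mean correlated at 0.081 or less, so the numbers were not used as pairs. Tests were tested on simulated data. Depth lay between 19176393 and 32713126 estimated counts per sample.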

Additional observations from a re-analysis of the deposited data

Results flagged for a closer look

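In 48 groups of 5 samples, one for each of the 6 transcripts in each tissue and genotype, 4 had a sample whose gap to the nearest other sample took more than 0.71 of the whole range, where chance gives about 2.4. For ENSRNOT00000018795.3 in Tti2+/- hippocampus the gap took 1 of the range, as rat 5 stood at 1.12 CPM and the other 4 samples at 0. For ENSRNOT00000065111.1 in Tti2+/- muscle it took 0.912, with rat 6 at 6.53 CPM and the others between 3.53 and 3.80 CPM, and without that rat the log2 fold difference was -0.06. For ENSRNOT00000091597.1 in wild-type hippocampus it took 0.807, with rat 2 at 18.2 CPM and the others between 13.2 and 14.2 CPM. That sample was also the most distant hippocampus sample in a principal component analysis. The study removed 1 outlier hippocampus sample seen on principal components, which its methods do not name. All hippocampus samples were kept here in the main fit. For ENSRNOT00000081245.1 in Tti2+/- fat it took 0.726, with rat 4 at 48.6 CPM and the others between 42.1 and 43.9 CPM.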

How the results depend on the processing

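The median liver log2 difference of the 6 transcripts lay between 0.832 and 0.957 when each liver was left out in turn. All 6 were called under each alternative fitted to all livers except the rat number as a replicate block, which left 3 of 6 (ENSRNOT00000018795.3, ENSRNOT00000091597.1 and ENSRNOT00000065111.1); leaving out each liver left 4 to 6. As the liver contrast chose the 6, these calls are a description. The block pairs different animals. In the data, 6 of 10 livers correlated best with their own number, where chance among 5 gives 2 of 10. This takes each of 5 pairs from both sides, so the 10 are not independent, and the same-number correlations were 0.0047 to 0.051. The same was seen for 0 of 10 muscle, 3 of 10 fat and 2 of 8 hippocampus samples. In muscle, fat and hippocampus 0 members were called under every setting run, the block included, where the calls over all transcripts were also few, from 0 with the block to 40, 20 and 11 with DESeq2. Without a filter, ENSRNOT00000018795.3 differed by 3.27 (SE 1.74, edgeR adjusted p = 0.841) in hippocampus, on the counts of 1 library. The count of transcripts called higher in the liver, 19 in the main test, was 50 with DESeq2, 9 at an adjusted p under 0.05, 40 with no fold limit, 5 with the block and 6 to 29 when each liver was left out (6 without wild-type rat 4, 9 without wild-type rat 2, 29 without wild-type rat 6, 7 without Tti2+/- rat 5 or rat 6). The order of tissues held for 1 of 6 transcripts on CPM over all 40 samples, and for 5 to 6 when each sample was left out. The median correlation over livers was 0.276 with log2(TPM + 0.1) and 0.144 (without wild-type rat 2) to 0.395 when each liver was left out. Small differences changed sign: ENSRNOT00000065111.1 in hippocampus (0.0112) was -0.0017 with the block and -0.0656 to 0.0599 when each sample was left out, ENSRNOT00000091597.1 in hippocampus was 0.0266 for its summed set, ENSRNOT00000009342.5 in fat was -0.0598 to 0.0911, ENSRNOT00000081245.1 in muscle -0.1226 to 0.0017, and ENSRNOT00000065111.1 in muscle -0.0602 to 0.2224 when each sample was left out. The causes were not tested. At 5 rats per group the differences outside the liver did not pass over all transcripts, and the counts of ENSRNOT00000018795.3 there were too low to give a difference under 5 of the 10 fits of the fat that left out a sample.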
